A study of Homo sapiens with 2 samples.

Results

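NRF-1 peaks were examined at the promoters of 7 genes that encode enzymes of heme synthesis, ALAS1, ALAD, UROS, UROD, CPOX, PPOX and FECH, among 19794 protein-coding genes. The members were listed for their function and by no measured value, although earlier results of these data were known at that point. Chromatin was immunoprecipitated with an antibody to NRF-1 from the established human glioblastoma line U251, whose cells had been transfected either with a control oligonucleotide (siControl) or with siAATF #1, an oligonucleotide that depletes AATF, a transcriptional cofactor (siAATF). The labels give 1 sample and 1 peak list per condition. The protocol mentions duplicates, but with 1 list per condition there were no replicate values here, so no test between conditions was made, and AATF depletion cannot be told apart from any other difference between the libraries. U251 is the line in the sample labels, which were followed here, whereas the series design mentions U138. The siControl list held 18014 peaks, 11695 of them at a coding promoter, and the siAATF list held 18454, with 11648 at a coding promoter.

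Heme is the iron porphyrin of cytochromes, catalases and haemoglobin. Its synthesis begins in the mitochondrion, where ALAS1 joins glycine and succinyl-CoA, passes through the cytosol with ALAD, UROS and UROD, and ends in the mitochondrion again with CPOX, PPOX and FECH, which inserts the iron. ALAS1 is the rate-limiting enzyme outside the erythroid lineage. NRF-1 binds GC-rich palindromic sites, many of them at nuclear genes whose products work in mitochondria, and heme is a cofactor of several complexes of the respiratory chain.

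A promoter was taken as 1 kb on either side of any coding transcript start. Each of the 7 genes carried at least 1 promoter peak in both lists. A promoter peak was found at 61.1% of coding genes in siControl, 60.7% in siAATF and 59.5% in both. A −log10 q of at least 5, where q is the adjusted p that the peak caller gave against the background it estimated, was reached by 6 of 7 members in each list, beside 51.5% of coding genes in each. PPOX was the member below it in both.

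The sequences are shown first for ALAS1, UROS and ALAD, whose peaks were the most significant of the group. Each stretch runs 5′ to 3′ on the strand of the gene, on hg19, and stops before the earliest annotated transcript start. Capitals mark matches to the 12-base NRF-1 consensus with at most 1 mismatch on either strand.
ALAS1, chr3:52231982-52232101: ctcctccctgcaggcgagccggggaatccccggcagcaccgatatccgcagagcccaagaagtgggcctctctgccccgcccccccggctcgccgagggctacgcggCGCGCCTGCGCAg
UROS, chr10:127511828-127512114: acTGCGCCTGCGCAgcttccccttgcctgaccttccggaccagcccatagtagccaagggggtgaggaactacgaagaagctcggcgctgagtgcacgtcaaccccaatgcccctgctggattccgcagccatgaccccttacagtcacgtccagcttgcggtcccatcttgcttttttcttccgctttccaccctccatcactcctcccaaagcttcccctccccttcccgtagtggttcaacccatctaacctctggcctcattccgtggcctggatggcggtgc
ALAD, chr9:116163571-116163690: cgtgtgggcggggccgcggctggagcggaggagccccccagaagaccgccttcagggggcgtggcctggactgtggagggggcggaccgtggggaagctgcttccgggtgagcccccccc

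The ALAS1 match in this stretch ended 2 bp before the earliest annotated start of the gene. The UROS stretch is the whole interval between the starts of UROS and of BCCIP, a gene read from the opposite strand, which lie 288 bp apart. Its match ended 3 bp before the BCCIP start. The ALAD stretch held no match.

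The remaining sites are shown because they were among the closest matches in each promoter peak or the second match of a pair. ALAD and UROD each held 2 equally close matches and FECH held 3, of which 1 per gene is shown. Each site has 9 bases on either side and the 12 aligned bases in capitals.
ALAS1, second match, 1 mismatch, chr3:52232110-52232139: agcgcccaaGGCGCATGCGCAgcggtcact
UROS, exact match, chr10:127511810-127511839: ggatggcggTGCGCATGCGCGagcgcctag
ALAD, 2 mismatches, chr9:116163748-116163777: gcagttcgcTGCACAAGCGCAgggcccgga
UROD, 2 mismatches, chr1:45476605-45476634: cgcccgtggTGCGCACGCAGGcgccgcgcc
CPOX, 2 mismatches, chr3:98312050-98312079: cgccgccttCGGGCATGTGCAgcgggcgga
FECH, 2 mismatches, chr18:55253931-55253960: ggctggggaCGCGCGTGGGGAtcgctaccc
PPOX, 3 mismatches, chr1:161136036-161136065: gggtacggcCGCTCACTCCCAgctcggcgc

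The consensus with at most 1 mismatch was present in the siControl promoter peak of 2 of 7 members, ALAS1 and UROS, beside 21.4% of siControl peaks at coding promoters. The same 2 members had it in siAATF. Both carried a pair of separate matches. Of all 11695 siControl peaks at coding promoters, 2506 held at least 1 match and 518 (4.43%) held 2 or more. The ALAS1 matches began 30 bp apart and the UROS matches 282 bp apart. The exact UROS match overlapped its canonical start. With up to 2 mismatches a match was found in 6 of 7 members, but also in 60.4% of siControl promoter peaks, so such matches separate little.

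**Figure D1:**
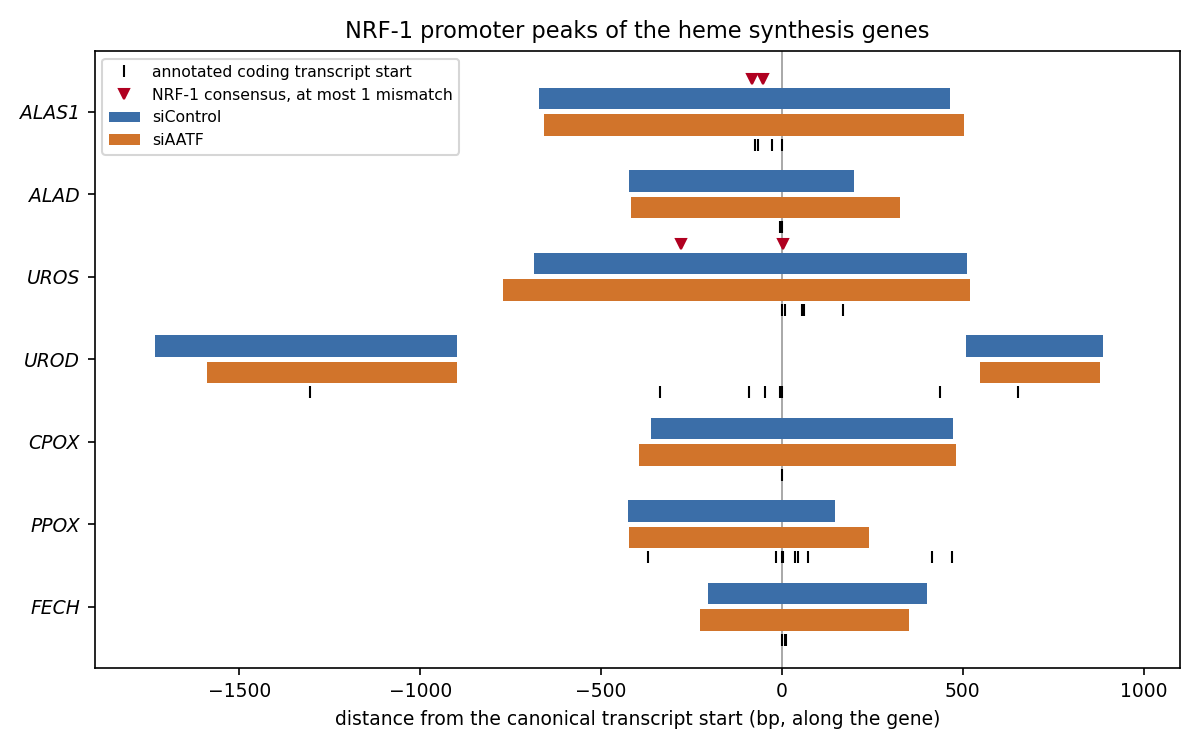
Position of the promoter peaks of the 7 genes in siControl (blue) and siAATF (orange), as the distance in bp from the canonical transcript start along the gene. Black ticks are annotated coding starts and red triangles are consensus matches with at most 1 mismatch. 6 members have a peak over the canonical start, whereas that of UROD lies in a gap between a pair of peaks.

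ALAS1 (ENSG00000023330.15), the enzyme of the first step, had a peak on chromosome 3 at 52231505 to 52232640 in siControl, with a fold enrichment over that background of 7.14 and a −log10 q of 75.2. In siAATF the peak was at 52231518 to 52232679, and its fold enrichment was 6.26 and its −log10 q 66.7. Both values are relative to the background of each library, and so only ranks within a list were compared, from 0 for the weakest peak to 100 for the strongest. By fold enrichment the ALAS1 peak ranked 68.3 in siControl and 60.9 in siAATF, and by −log10 q 94.8 and 94.5. It was thus placed among the most significant peaks by q and much lower by fold enrichment. The peak was wide, at 1136 bp and 1162 bp, and spanned exon 1, which is untranslated, and part of intron 1. It covered 4 of 6 annotated starts in both lists. The uncovered ones lay further inside the gene.

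ALAD (ENSG00000148218.16), which joins 2 molecules of aminolevulinate, had the highest fold enrichment of the members. Its siControl peak, on chromosome 9, ran from 116163366 to 116163987, and its fold enrichment was 11.7 (rank 99.8) and its −log10 q 61.1 (rank 89.4). In siAATF it was at 116163239 to 116163980, where fold enrichment was 9.27 (rank 97.01) and −log10 q was 40.3 (rank 83.2). The change of −6.26 points by q was the largest fall of the 7 by that ranking, and a change of at least this size was seen in 24.6% of the 11774 genes with a promoter peak in both lists. The peak was narrower than that of ALAS1, at 622 bp and 742 bp, and lay over untranslated exon 1. Among promoter peaks of siControl with a fold enrichment rank of at least 99, 22.8% of 114 held the consensus with at most 1 mismatch, and ALAD was among those without it.

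UROS (ENSG00000188690.15), which closes the tetrapyrrole ring, had the most significant peak of the group. It lay on chromosome 10 at 127511317 to 127512513 in siControl, where fold enrichment was 7.37 (rank 71.5) and −log10 q was 95.4 (rank 99.4). In siAATF it lay at 127511307 to 127512598, where fold enrichment was 6.62 (rank 66.6) and −log10 q was 79.7 (rank 98.5). The whole siControl peak was contained in the siAATF peak. It spanned the BCCIP start and the untranslated exon 1 of UROS, so that the values cannot be assigned to either gene of the pair.

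UROD (ENSG00000126088.14), which decarboxylates uroporphyrinogen, stood apart in position. Its stronger peak lay on chromosome 1 at 45476192 to 45477027 in siControl, where fold enrichment was 6.34 (rank 57.7) and −log10 q was 18.3 (rank 65.5). In siAATF it was at 45476336 to 45477027, where fold enrichment was 6.95 (rank 71.2) and −log10 q was 19.8 (rank 68.9). This peak ended 899 bp before the canonical start of UROD, covered the outermost of its annotated starts and also held the start of HECTD3 at 45476996, on the opposite strand, so that its values are likewise shared by a pair of genes. The weaker UROD peak was at 45478435 to 45478814 in siControl and at 45478473 to 45478804 in siAATF, over exon 2, which is coding, and parts of the introns beside it, and in siControl it reached 7 bp into exon 3. It ranked 4.02 by fold enrichment in siControl and 1.35 in siAATF, and 23.02 and 7.21 by q. The pair therefore moved in opposite directions between the lists. The gap between them, 1407 bp long in siControl and 1445 bp long in siAATF, held the canonical start. The canonical start lay inside a promoter peak for 6 of 7 members, beside 86.9% of the genes that had such a peak in siControl and 88.2% in siAATF. The 300-base window at the UROD start, from 250 bases before it to 50 after, had the lowest GC content of the members, 54.0%, and its closest match to the consensus had 4 mismatches.

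CPOX (ENSG00000080819.9), which makes protoporphyrinogen from coproporphyrinogen, has 1 annotated coding start, and its peak on chromosome 3 covered it. The peak at 98311982 to 98312817 in siControl had a fold enrichment of 8.15 (rank 82.1) and a −log10 q of 19.2 (rank 66.6). The peak at 98311974 to 98312849 in siAATF had a fold enrichment of 7.34 (rank 76.7) and a −log10 q of 16.3 (rank 64.7). It reached into the coding part of exon 1, where the closest match to the consensus was found, 390 bp past the start.

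PPOX (ENSG00000143224.18), which oxidises protoporphyrinogen, had the lowest values of the 7 when each gene is taken by its most significant promoter peak. It lay on chromosome 1 at 161135790 to 161136362 in siControl, where fold enrichment was 3.88 (rank 14.8) and −log10 q was 2.84 (rank 15.96). In siAATF it lay at 161135792 to 161136455, where fold enrichment was 3.52 (rank 8.06) and −log10 q was 2.50 (rank 13.1). It covered 7 of 11 annotated starts in both lists. Other peaks lay within 10 kb of PPOX. At 161128749 to 161129805, over the start of USP21, the siControl peak ranked 99.2 by q and its siAATF counterpart 98.9. At 161146858 to 161147417, over a start of B4GALT3 inside the span of PPOX, the siControl peak ranked 15.7 by fold enrichment and its siAATF counterpart 45.7, a change of 29.98 points.

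FECH (ENSG00000066926.13), ferrochelatase, had a narrow peak of high fold enrichment. On chromosome 18 it was at 55253534 to 55254139 in siControl, where fold enrichment was 8.92 (rank 90.7) and −log10 q was 18.98 (rank 66.4). In siAATF it was at 55253583 to 55254161, where fold enrichment was 9.04 (rank 95.8) and −log10 q was 18.5 (rank 67.4). It was the member peak richest in GC, at 75.9% in siControl, beside a median of 67.98% over siControl promoter peaks, and it held no match with fewer than 2 mismatches.

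By −log10 q the members fell in the order UROS, ALAS1, ALAD, CPOX, FECH, UROD and PPOX in siControl. In siAATF the order was the same for the leading 3, FECH and PPOX, and CPOX and UROD exchanged places, with CPOX, FECH and UROD between 16.3 and 19.8. The spread of these values is unknown with 1 list per condition, so the order of CPOX, FECH and UROD is not settled. Among promoter peaks alone, the members had siControl ranks by q from 7.54 for PPOX to 99.2 for UROS, and CPOX, in the middle, ranked 56.1. By q the members other than UROS, ALAS1 and ALAD thus lay near or below the middle of promoter peaks. By fold enrichment among siControl promoter peaks, FECH ranked 88.3 and CPOX 77.4, whereas UROD ranked 47.5 and PPOX 8.51. Around ALAD, the nearest other peaks covered the starts of HDHD3 and of POLE3 with C9orf43, with ranks by q of 93.4 and 67.5 in siControl, and 91.8 and 70.1 in siAATF.

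**Figure D2:**
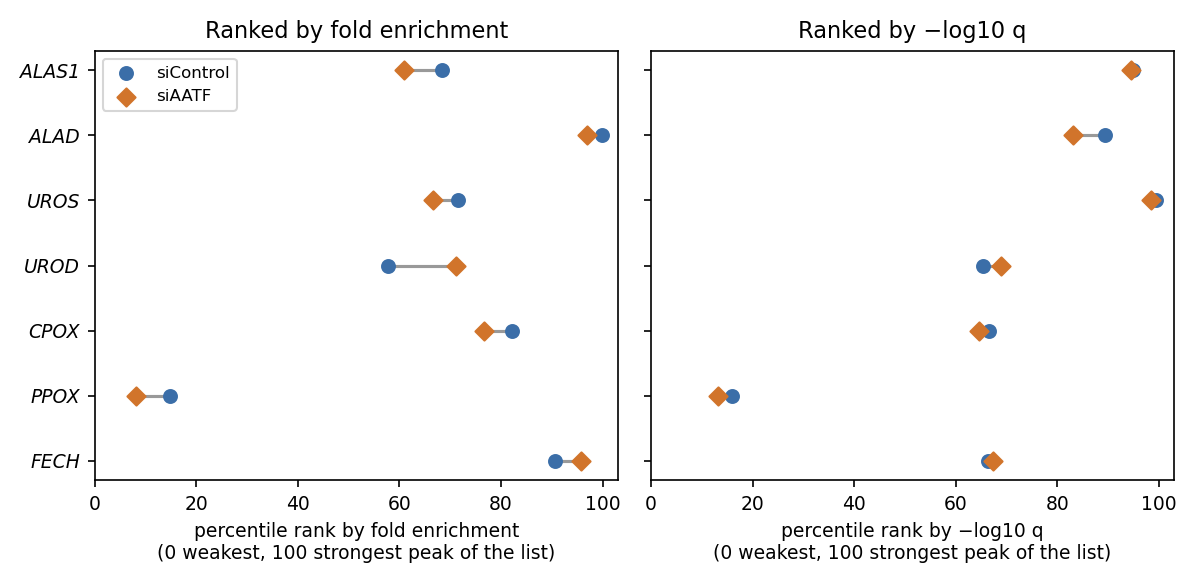
Percentile rank of the promoter peak of each gene within its own list, by fold enrichment (left) and by −log10 q (right), in siControl (blue circles) and siAATF (orange diamonds), with 1 list per condition. 5 genes are lower and 2, UROD and FECH, higher in siAATF by both rankings.

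The comparison of the lists asked whether NRF-1 occupancy of these promoters differed after AATF depletion. The median change in rank by fold enrichment, siAATF minus siControl, was −4.88 points over the 7 members, beside 0.185 points over the 11774 genes with a promoter peak in both lists. Of the members, 5 ranked lower in siAATF, beside 48.8% of these genes. The changes ran from −7.43 points for ALAS1 to 13.5 points for UROD. A change of at least the size of that of ALAS1 was seen in 36.9% of these genes, and of UROD in 16.7%. None of the 7 members (0) moved by more than 20 points, beside 6.63% of genes. Ranked by −log10 q, the members had a median change of −0.919 points, beside 0.464 over all these genes, and the same 5 members were lower, beside 44.4% of these genes. The peaks overlapped widely in position, with 82.8% to 100% of the siControl peak contained in the siAATF peak. Changes of this size could not be set against a replicate spread.

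The share of promoter peaks with the consensus was next compared with their significance. In siControl it was 3.95% of peaks with a −log10 q under 10, 10.9% between 10 and 20, and 83.5% at 90 or more. UROS and ALAS1, with the consensus, fell in bins where 83.5% and 69.6% of peaks had it. CPOX, FECH and UROD lay in the bin with 10.9%, and PPOX in that with 3.95%, and none of these 4 had it. ALAD lay in the bin from 60 to 70, where 56.9% of 594 peaks had the consensus, and did not have it itself. In siAATF the ALAD peak lay in the bin from 40 to 50, where the share was 38.5%. These are descriptions across peaks that share a library and its depth and that differ in GC content and width. A wider peak offers more positions for a match, and UROS (1197 bp) and ALAS1 (1136 bp) had the widest member peaks in siControl.

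**Figure D3:**
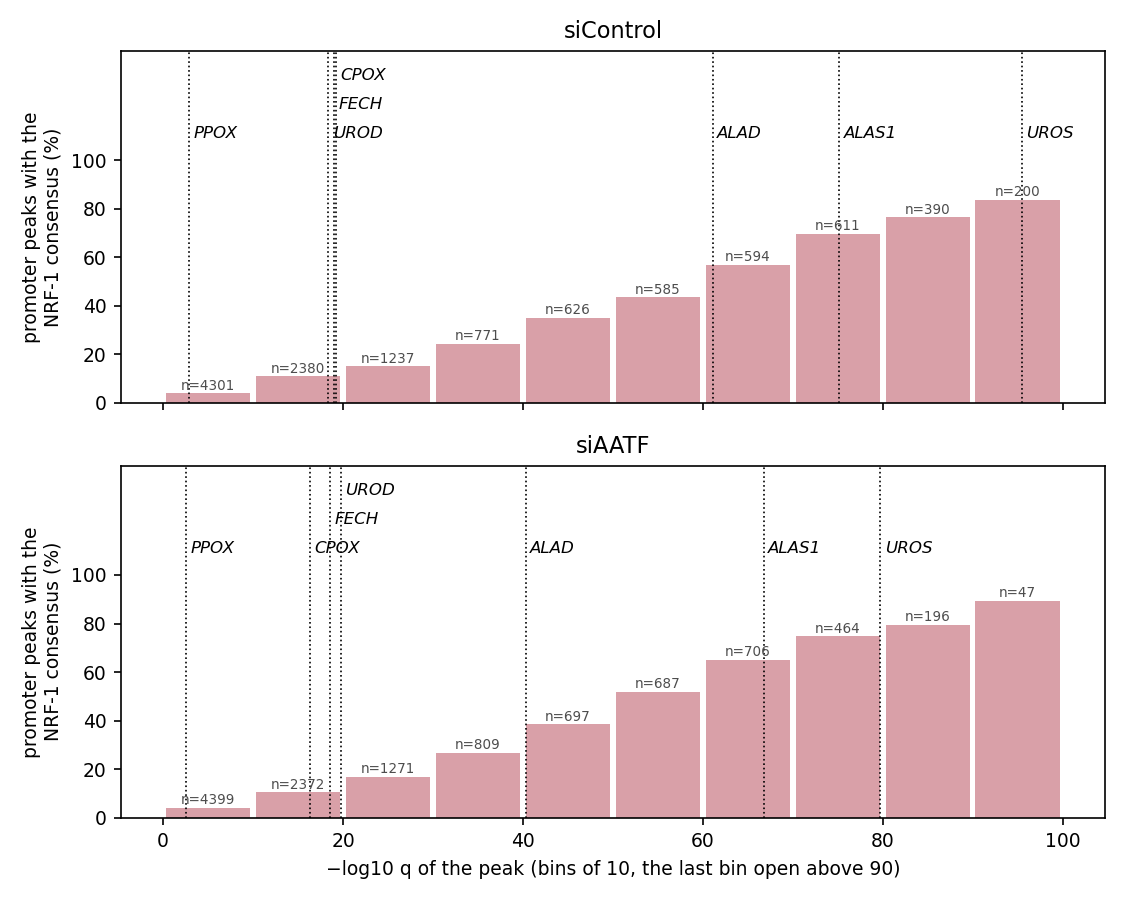
Share of promoter peaks that hold the NRF-1 consensus with at most 1 mismatch (bars, in %, with the number of peaks as n), in bins of −log10 q, for siControl (top) and siAATF (bottom). Dotted lines mark the promoter peaks of the 7 genes: ALAS1 and UROS, which have the consensus, lie at the right, and ALAD, which has none, lies at 61.1 in siControl and 40.3 in siAATF.

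Other words were searched on both strands in the 300-base windows at the canonical starts. The GC box GGGCGG was found in 5 of 7 members and 61.3% of all coding genes, and CCAAT in 3 (ALAD, UROS and PPOX) and 35.9%. TGCGCA, the core of the NRF-1 consensus, was in 2 (ALAS1 and UROS) and 10.8%. The ETS word CCGGAAG was in ALAD alone and 13.97% of genes, the GATA word AGATAA in CPOX alone and 7.18%, and the CRE word TGACGT in UROS alone and 9.53%. In these windows no word other than the GC box was shared by more than 3 members. In the longer siControl promoter peaks TGCGCA was also in UROD, and the GC box was in all 7 members. There the ETS word was also in ALAS1 and UROS, the GATA word also in UROS and CCAAT also in ALAS1. No share over all promoter peaks is given here for these words.

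The 47 related genes of heme and iron metabolism give the setting. In each list 43 of them carried a promoter peak, beside 61.1% of coding genes in siControl and 60.7% in siAATF. In both lists 42 did so, beside 59.5% of coding genes. Of 12 genes for heme transport and accessory factors, 11 had a peak in each list. All 19 genes for iron supply and iron-sulfur assembly had one in each list. Of 9 genes for heme use and breakdown, 9 had one in siControl and 8 in siAATF, since HCCS, which attaches heme to cytochrome c, had a weak siControl peak alone (−log10 q 1.84, the lowest of the related genes there). Of 7 regulators and the erythroid isoenzyme, 4 had one in siControl and 5 in siAATF. ALAS2, the erythroid counterpart of ALAS1, and GATA1, an erythroid transcription factor, had none in either list. PPARGC1A, a coactivator of NRF-1, had a weak siAATF peak alone (−log10 q 2.60). The highest value belonged in both lists to IBA57, an iron-sulfur assembly factor, at 91.7 and 86.1.

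**Figure D4:**
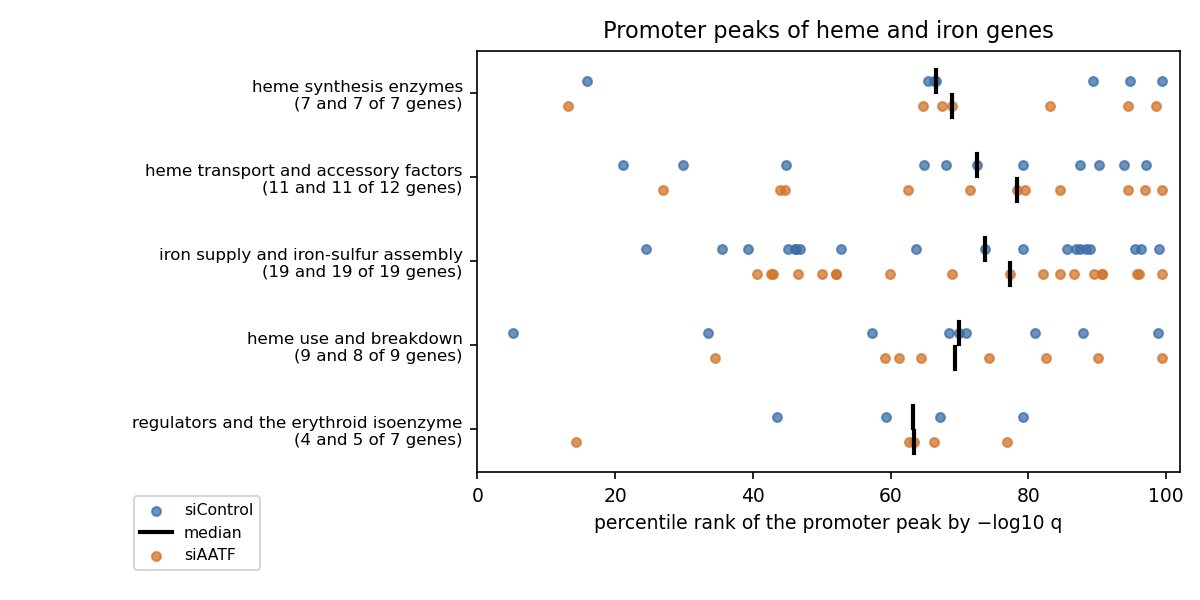
Percentile rank by −log10 q of the promoter peaks of the 7 heme synthesis genes and of 4 lists of related genes, in siControl (blue) and siAATF (orange), for genes with a peak in that list; counts beside each name are genes with a peak in siControl and in siAATF. Black bars are medians, which for the synthesis genes are 66.6 and 68.9.

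The median rank by q was 66.6 for the synthesis enzymes in siControl and 68.9 in siAATF, beside 69.97 and 71.5 over the related genes with a peak. Over the 11774 coding genes with a promoter peak in both lists it was 66.2 and 67.0. Over the 42 related genes with a peak in both lists, the median change in rank by fold enrichment was 1.71 points. Over the 11774 coding genes it was 0.185 points. Of the 42 related genes, 15 were lower in siAATF, beside 48.8% of the 11774. Among the 42 related genes 3 moved by more than 20 points, beside 6.63% of the 11774, and are named here because of those values. They were TSPO, a mitochondrial outer membrane protein (16.1 to 46.9), BOLA3, an iron-sulfur assembly factor (33.9 to 70.8), and IREB2, an iron regulatory protein (51.8 to 84.9), and all ranked higher in siAATF. The siControl peaks of TSPO and BOLA3 were weak, with a −log10 q of 3.40 and 3.84.

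The genes most like each member were taken from the 4 ranks, by fold enrichment and q in both lists, by Euclidean distance over up to 11773 genes. They were SAFB for ALAS1 (distance 1.72 points), CHIC2 for ALAD (2.54), TMED4 for UROS (1.51) and CAMK2D for UROD (1.77). For CPOX it was VPS4A (2.46), for PPOX POLR1G (2.55) and for FECH ELAPOR2 (2.94). These are likenesses over 4 values from 2 lists.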

How the data were processed

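NRF-1 ChIPmentation libraries, in which a transposase inserts the adapters into immunoprecipitated chromatin, were sequenced in paired-end mode from siControl and siAATF U251 cells. Per the study's methods, reads were aligned to hg19 with Bowtie2 and peaks called with MACS2 inside an ATAC-seq pipeline with default settings. An input or IgG control and pooling of the duplicates the protocol mentions were not given in the sources used here. For every peak the authors deposited MACS2's fold enrichment (a ratio), −log10 p and −log10 q. The lists are in the broad-peak format, so these values belong to the whole peak region and not to a summit. A score for genome browsers, also deposited, was left aside. Read depth is unknown, which affects how many weak peaks pass the threshold.

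Positions are 1-based on hg19. Starts came from GENCODE release 44 lifted to GRCh37 and sequence from the GRCh37 primary assembly. A peak overlapping the promoter by at least 1 base was counted, and the one with the highest −log10 q was taken as the promoter peak. Python 3.11.15, numpy 2.4.6, pandas 2.3.3 and pysam 0.24.0 were used, with the overlap and motif steps tested on simulated data. Named genes were the members, genes with a start inside a member's peak, peaks within 10 kb of a member, related genes lacking a peak or with the highest or lowest −log10 q, and the most alike gene by 4 ranks. A gene that this rule names is not reported here. The members, lists and tests were chosen with earlier results of these data known.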

Additional observations from a re-analysis of the deposited data

How the results depend on the processing

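No paired analysis was possible because each condition has a single list, labelled replicate 1. Of 60 alternative values over 23 results, 27 stayed within 1.5 times for counts or did not change, and 33 moved, 28 of them the rank of a single member under another ranking. The median change in rank of the members, −4.88 points, was −0.919 points ranked by −log10 q, −3.75 points among promoter peaks alone and −4.84 points on chromosomes 1 to 22 and X, and each setting kept its sign. Exact matches to the consensus were found in 1 member and matches with up to 2 mismatches in 6, against 2 with up to 1 mismatch. Promoters of 500 bp, the canonical start alone and the peak midpoint left the count of members with a peak at 7 in each list. Promoters of 2 kb also gave 7, but a wider window could not have lowered the count. A −log10 q of at least 5 lowered it to 6 in each list. Taking the weaker UROD peak in place of the stronger, an alternative chosen after seeing the data, left the median at −4.88 points. That setting could not move the median, since both UROD changes, 13.5 and −2.66 points, lay above it. With the weaker peak, UROD too ranked lower in siAATF. With 1 list per condition and the depth unknown, no change of rank could be set against an error.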
